A study of Homo sapiens with 28 samples.

Results

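Cytoplasmic RNA of cells given JQ1-VHL was set against that of cells given JQ1, its parent compound. The 6 libraries were chosen by their labels alone, 3 per compound, out of 28 libraries in the series, and all genes in the deposited tables were used. The cells were MDA-MB-453, an established human breast cancer line of luminal type. They were given a compound or the solvent DMSO for 3 h, and 4-thiouridine at 0.1 mM was present for the last 60 min. Digitonin then parted a cytoplasmic supernatant from the nuclei, and the 3′ ends of polyadenylated RNA were sequenced in either fraction. The other groups were DMSO (3 libraries per fraction), another bromodomain inhibitor, IBET151 (2 per fraction) and IBET151-VHL (3 per fraction). All groups shared the line, the time, the 4-thiouridine and the Drosophila S2 cells added before permeabilisation. The labels give no doses, so whether JQ1 and JQ1-VHL were given at the same dose is unknown, and they do not say whether replicates were separate cultures. P-values therefore measure the spread between libraries, which may be technical.

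BET proteins read acetylated histones through paired bromodomains and help RNA polymerase II to leave its pause near promoters, in part by recruiting the kinase P-TEFb. JQ1 fills the acetyl-lysine pocket and frees BET proteins from chromatin while leaving the proteins in the cell. JQ1-VHL joins JQ1 to a ligand of VHL, the substrate receptor of a cullin ubiquitin ligase, so that BET proteins are marked for the proteasome. In 4-thiouridine labelling, new RNA takes up the base analogue, and alkylation makes it read as C in place of T, so reads with such conversions (T>C reads) come mainly from RNA made during the labelling hour.

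Each JQ1 library held 35223277 to 68475299 reads and each JQ1-VHL library 30647584 to 38998453. T>C reads numbered 193324 to 360238 in a JQ1 library and 92537 to 116519 in a JQ1-VHL library. JQ1 replicate 3 was the deepest of the 6. Values are reads scaled by the authors to ERCC spike-in RNA, which was added per mass of extracted RNA. They are levels per RNA mass of the fraction, and in such bulk libraries fewer cells of a type and less RNA per cell cannot be told apart. Luminal genes marked the line in all 6 libraries, with KRT18 at 22962 to 37455 and ERBB2 at 3074 to 5407. Basal, blood and immune markers lay between 0 and 60.5 or were not in the table. COL1A1 was the exception among the stromal markers at 1281 to 1921, while COL1A2 and COL3A1 did not pass 5.44. Interferon response genes set apart JQ1 replicate 3. The summed value of the 20 tested was 40099, 30802 and 139193 in JQ1 replicates 1 to 3 and 31097, 31275 and 32816 in JQ1-VHL. DMSO replicate 3 (152870), IBET151 replicate 2 (102534) and IBET151-VHL replicate 3 (106010) were high as well, whereas JQ1-VHL replicate 3 was not. Counts of calls over all genes, the calls of named genes, list counts and turnover classes were therefore also taken without JQ1 replicate 3. The number called lower then went from 6 to 4 of the 20 death regulators, from 10 to 9 of the 17 MAP kinase feedback genes, from 23 to 24 of the 35 other short-lived regulators and from 8 to 9 of the 22 p53 targets. It went from 0 to 1 in the HER2 list and from 0 to 2 in the heat shock list and in that of Mediator and RNA polymerase II, and did not change in the other 23 lists.

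T>C reads were a smaller part of cytoplasmic reads with the degrader than with its parent. T>C reads were 0.538%, 0.568% and 0.526% of all reads in JQ1 replicates 1 to 3 and 0.262%, 0.302% and 0.299% in JQ1-VHL, against 0.818%, 0.782% and 0.747% in DMSO. The 3 groups did not overlap. The mean share was 0.544 ± 0.0215% (SD, n = 3) in JQ1 and 0.288 ± 0.0221% (n = 3) in JQ1-VHL, a 1.89-fold difference (2-sided exact permutation p = 0.1, the smallest that 3 against 3 libraries can give, and 0.15 after Benjamini-Hochberg adjustment over 3 library tests). The summed T>C value was 1.93-fold lower, a log2 difference of -0.95 (exact p = 0.1, adjusted 0.15). The sum over all reads differed by -0.028 log2 units (exact p = 0.8), less than the spread between replicates. Values scaled per RNA mass hold that sum near level, so it cannot show how much RNA the cells held.

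**Figure D1:**
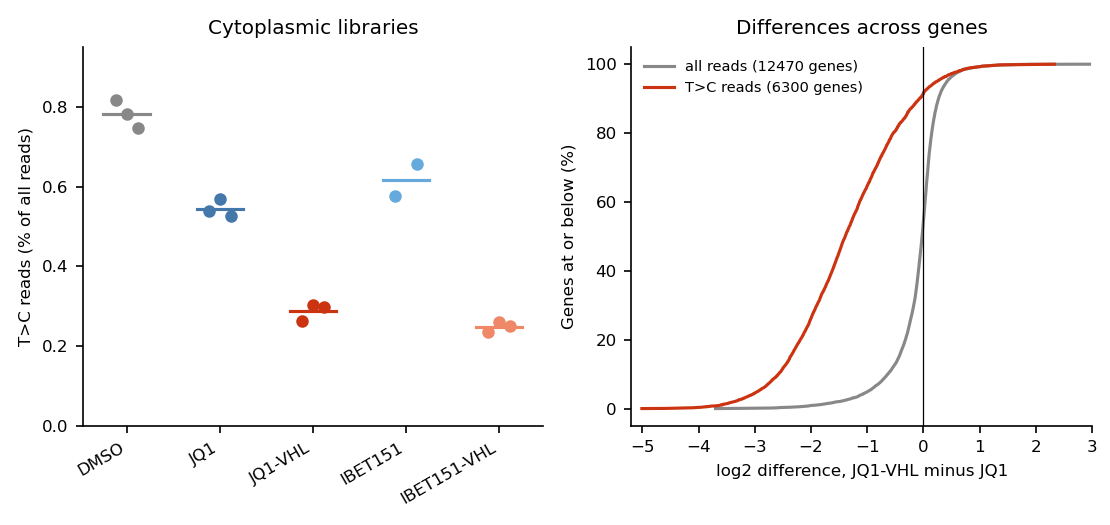
Left, T>C reads as a percentage of all reads in each cytoplasmic library (points) with the group mean (line). Right, the share of genes at or below each log2 difference between JQ1-VHL and JQ1, for all reads (12470 genes) and T>C reads (6300 genes). The JQ1-VHL libraries lie at 0.262% to 0.302%, under every JQ1 library, and the T>C curve lies to the left of the curve for all reads.

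A few genes with a high T>C share in every group weighed on these sums. Where the share is at least 5% in DMSO cytoplasm and within 1.5-fold of that in DMSO nuclei, the conversions hardly differ between fractions, and 183 such genes held 27.3% of the summed T>C value in JQ1 and 54.5% in JQ1-VHL. What gives their conversions was not tested. Without them the T>C share was 0.396 ± 0.0158% in JQ1 and 0.131 ± 0.0207% in JQ1-VHL (SD, n = 3 each), a 3.03-fold difference (exact p = 0.1). The summed T>C value was then 3.11-fold lower (exact p = 0.1).

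In all reads, 521 genes were lower and 6 higher in JQ1-VHL than in JQ1 at an adjusted p under 0.05 (limma with Benjamini-Hochberg adjustment, 14 cytoplasmic libraries in the fit). This was 4.23% of 12470 genes tested, 4.18% lower and 0.0481% higher. The median over all tested genes was -0.02 log2 units. Scaling per RNA mass tends to hold this median near 0, so it cannot show that the other genes were unchanged per cell. Of the 521, 390 were at least 2-fold lower, 98 at least 4-fold and 13 at least 8-fold, with a median of -1.30 log2 units. The 3 JQ1-VHL libraries lay below all JQ1 libraries for 520 of them, while 16.2% of all tested genes had groups that did not overlap, 13.8% with JQ1-VHL lower. A further 8539 of the 11943 genes not called had a 95% interval within 1 log2 unit of 0, and 2557 within 0.5. Counts of calls fell when a library was left out, to 6 higher and 253 lower without JQ1 replicate 1, 0 and 268 without JQ1-VHL replicate 1, 1 and 337 without JQ1 replicate 2, and 2 and 332 without JQ1-VHL replicate 3. All 527 genes kept their direction in each of these fits, and without JQ1 replicate 3 the counts were 4 and 522.

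**Figure D2:**
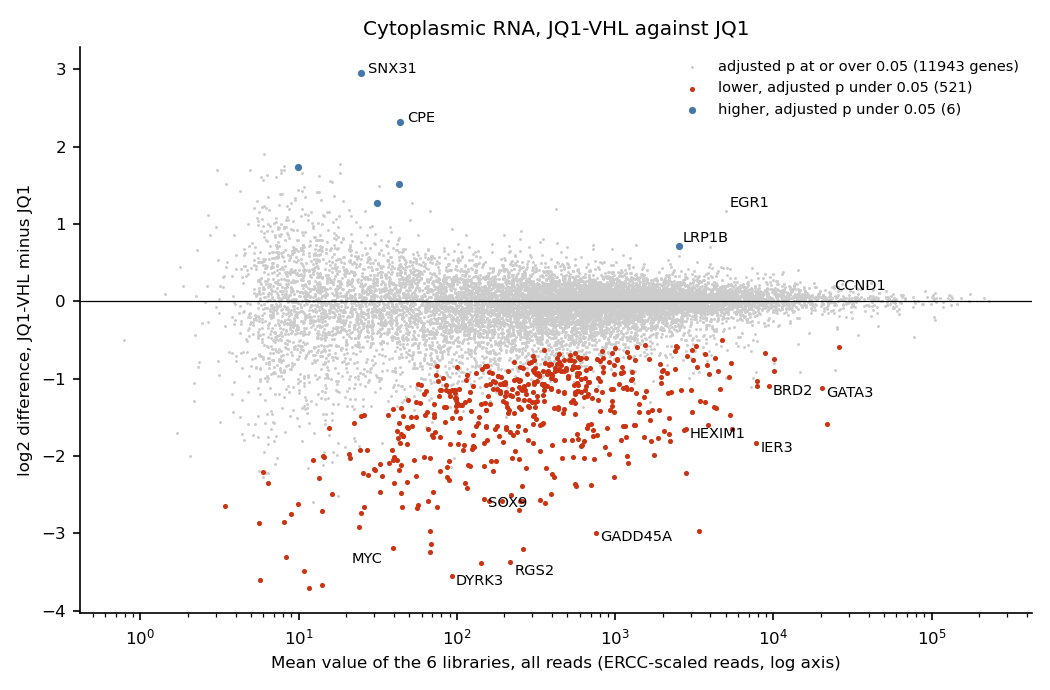
Each point is a gene, with the mean value of the 6 libraries on a log axis and the log2 difference between JQ1-VHL and JQ1 on the other. Red points passed as lower (521) and blue points as higher (6). Falls reach below -3 over a wide range of levels, and high-level genes such as CCND1 lie near 0.

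The largest falls among well measured genes were in short signalling and stress transcripts. They are named by a fixed rule of size, level and no overlap between groups. RGS2, which speeds the shut-off of G protein signals, stood at 430, 424 and 338 in the JQ1 libraries and at 44.9, 27.2 and 43.1 in JQ1-VHL, a 10.3-fold lower level (log2 -3.36 ± 0.29 SE, adjusted p = 1.14e-05). In DMSO it was 38.6, 77.7 and 41.9, so JQ1 alone had raised it and JQ1-VHL had not. DYRK3, a kinase that dissolves RNA-rich condensates, followed the same course. Its values were 233, 173 and 110 in JQ1, 9.39, 14.5 and 16.3 in JQ1-VHL, and 18.5, 32.1 and 15 in DMSO, and JQ1-VHL was 11.7-fold below JQ1 (log2 -3.55 ± 0.37, adjusted p = 4.96e-05).

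A second course was a fall from a JQ1 level above DMSO to one well below it. GADD45A, a stress-induced brake on growth, was 1475, 1302 and 1242 in JQ1 and 110, 233 and 179 in JQ1-VHL, an 8.00-fold lower level (adjusted p = 5.67e-06), with DMSO at 517 to 769. RNF223, a RING finger protein, fell 9.21-fold from 462 to 489 in JQ1 to 45.3 to 57.1 (adjusted p = 4.7e-06), with DMSO at 137 to 206. Both genes had JQ1 and JQ1-VHL libraries on opposite sides of the DMSO libraries.

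Other falls were from a JQ1 level that overlapped that of DMSO or lay under it. MYC, the transcription factor whose loss is the classic response to BET inhibitors, was 70.8, 202 and 239 in DMSO, 82.6, 50 and 82.2 in JQ1 and 10.7, 6.34 and 4.46 in JQ1-VHL. The degrader was 9.11-fold below its parent (log2 -3.19 ± 0.48, adjusted p = 0.00106), while the fitted difference between JQ1 and DMSO was -1.1 and their libraries overlapped. RASL11B, a Ras-like GTPase, was 335 to 415 in DMSO, 220 to 283 in JQ1 and 19.9 to 30.5 in JQ1-VHL (log2 -3.39 ± 0.30, adjusted p = 1.24e-05). RGS16, a relative of RGS2, was 109 to 137 in JQ1 and 8.15 to 16.1 in JQ1-VHL (log2 -3.24 ± 0.33, adjusted p = 4.47e-05), with DMSO at 90.2 to 156. CHAC1, which breaks down glutathione and whose DMSO level is not given here, fell 6.48-fold (adjusted p = 1.01e-05). SOCS3, a brake on cytokine signalling, was 35.4 to 109 in DMSO, 100 to 143 in JQ1 and 9.66 to 20.8 in JQ1-VHL, an 8.83-fold fall (adjusted p = 0.000333). CCDC71L was 30.5 to 105 in DMSO, 55 to 128 in JQ1 and 9.97 to 16.8 in JQ1-VHL (adjusted p = 0.00682), a call that was lost without JQ1 replicate 1 (log2 -2.44, adjusted p = 0.0503).

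Set beside DMSO, the 521 genes split by what JQ1 had done alone. JQ1 was called above DMSO for 67 of them, below it for 39 and neither for 415. JQ1-VHL was called below DMSO for 15, 39 and 330 of these and above it for 3, 0 and 0. Over all tested genes 4% were called lower and 0.818% higher in JQ1 than in DMSO, and 12.5% lower and 0.417% higher in JQ1-VHL. The median log2 differences from DMSO were 1.27 in JQ1 and -0.35 in JQ1-VHL for the 67, -1.03 and -2.24 for the 39, and 0.030 and -1.24 for the 415. These values share the JQ1 and JQ1-VHL libraries with the comparison that chose the genes, so they describe the genes and are no separate evidence.

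**Figure D3:**
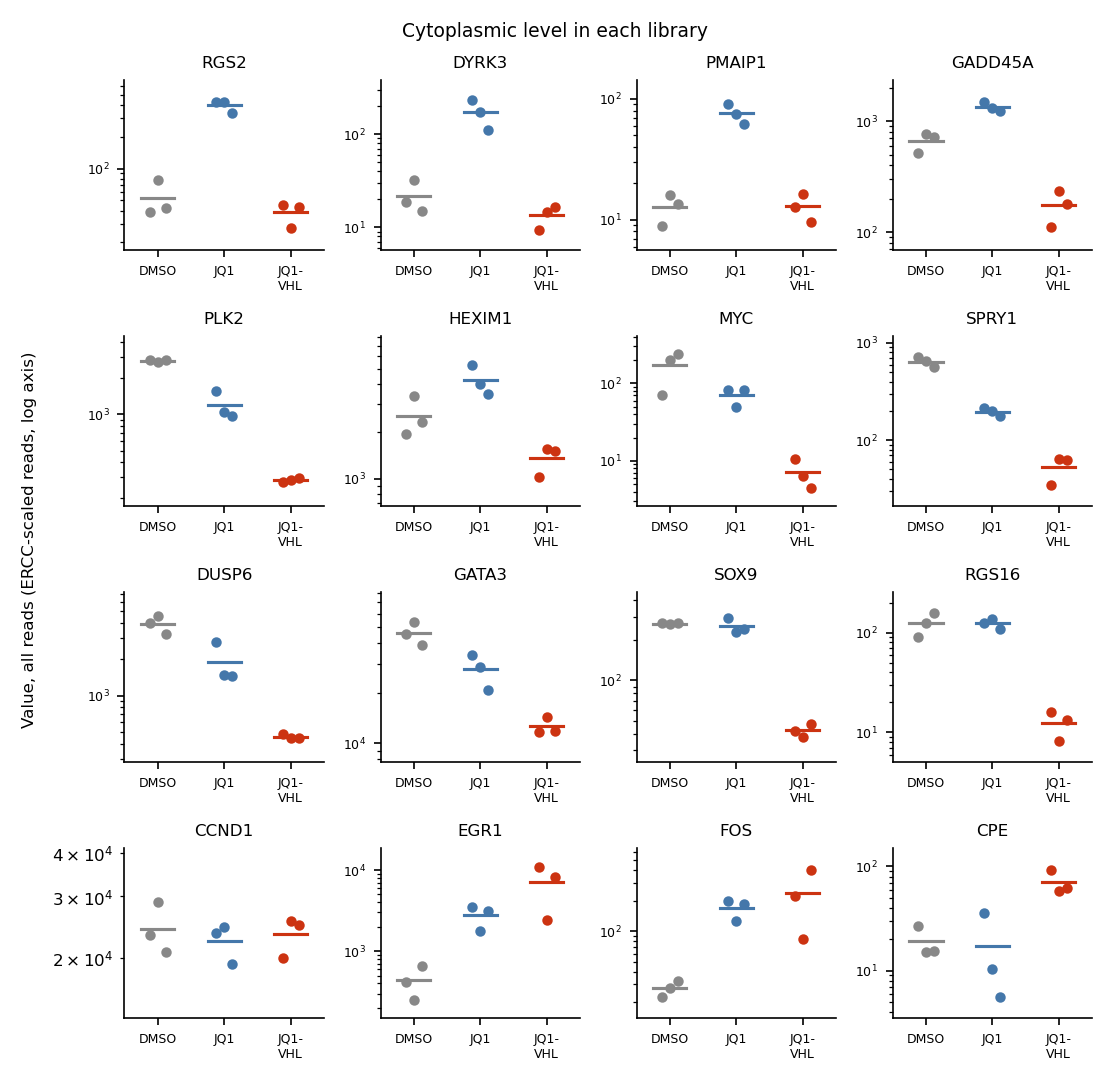
Each panel shows the value of a gene in all reads in each DMSO, JQ1 and JQ1-VHL cytoplasmic library (points, log axis) with the group mean (line). RGS2, DYRK3 and PMAIP1 return to the DMSO level in JQ1-VHL, and SPRY1, DUSP6 and GATA3 step down from DMSO to JQ1 and on to JQ1-VHL. MYC is lowest in JQ1-VHL, with DMSO and JQ1 libraries that overlap. SOX9 and RGS16 are level between DMSO and JQ1, and CCND1, EGR1 and FOS have JQ1 and JQ1-VHL libraries that overlap.

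All gene lists described from here on were chosen with earlier results of these data known. Their call rates beside that of all genes describe the lists and are no separate evidence. Of 7 genes by which BET inhibition is commonly followed, 3 fell (42.9%, against 4.18% of all genes tested) and none rose. The list median was -1.09 against -0.02 for all genes. HEXIM1, which holds P-TEFb inactive on the 7SK RNA and rises when BET proteins are inhibited, was 5308, 4004 and 3448 in JQ1 and 1023, 1546 and 1514 in JQ1-VHL (log2 -1.64 ± 0.23, adjusted p = 0.00048), with DMSO between at 1920 to 3357. BRD2, itself a BET protein, was 10354 to 15803 in JQ1 and 5921 to 6021 in JQ1-VHL (log2 -1.09 ± 0.18, adjusted p = 0.00183). ZCCHC24, a zinc finger protein, was 619 to 760 and 101 to 146 (log2 -2.49 ± 0.30, adjusted p = 0.000159). The groups did not overlap for any of the 3. The histone gene H2BC21 was 1768 ± 146 in JQ1 and 1109 ± 224 in JQ1-VHL (SD, n = 3 each), but did not pass (log2 -0.69, adjusted p = 0.0881, or 0.0125 with the replicate number as a block), and its reads may be shared with other histone genes.

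Among 15 genes of P-TEFb, the 7SK particle and the super elongation complex, 4 fell (26.7%, against 4.18% of all genes tested) and none rose. MEPCE, which caps and stabilises the 7SK RNA, was 2388, 1928 and 1610 in JQ1 and 595, 698 and 650 in JQ1-VHL (log2 -1.59 ± 0.21, adjusted p = 0.000369). HEXIM1 was described above. The elongation factors ELL2 and ELL fell by less, at log2 -0.78 and -0.74 (adjusted p = 0.00772 and 0.0184). ELL2 lost the call without JQ1 replicate 1 (log2 -0.68, adjusted p = 0.0581), and ELL without any 1 of JQ1 replicates 1 and 2 and the JQ1-VHL replicates (adjusted p = 0.0653 to 0.128). Limma made no call among 19 genes for pausing and elongation (0 at an unadjusted p under 0.05, 0 by edgeR and 0 by DESeq2) or 40 for Mediator and RNA polymerase II subunits (3, 0 and 2). POLR2A, the catalytic subunit of the polymerase, was 2642 ± 796 in JQ1 and 1566 ± 88.7 in JQ1-VHL (log2 -0.71, adjusted p = 0.133, or 0.0357 with the replicate number as a block).

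Immediate-early genes, which respond to signals without new protein, were called lower in 9 of 17 (52.9%, against 4.18% of all genes tested). Their median was -1.1. IER5, an immediate-early regulator of heat shock factor, was 5788, 4664 and 3503 in JQ1 and 895, 1070 and 986 in JQ1-VHL (log2 -2.21 ± 0.22, adjusted p = 2.59e-05). IER3, a stress and survival gene, was 9304 to 16632 and 2981 to 4137 (log2 -1.83 ± 0.27, adjusted p = 0.00073). BTG2, which slows growth and recruits the deadenylase complex, fell 5.68-fold, and FOSL2, an AP-1 subunit, 3.00-fold. EGR1 and FOS were the exceptions in sign. EGR1, a zinc finger factor induced within minutes of stimulation, was 3485, 1786 and 3127 in JQ1 and 10959, 2431 and 8302 in JQ1-VHL, both well above 251 to 647 in DMSO. The JQ1 and JQ1-VHL libraries overlapped and the difference of 1.17 had a 95% interval of -0.26 to 2.60 (adjusted p = 0.694). FOS, the AP-1 partner of JUN, was 125 to 200 and 83.3 to 404 (difference 0.23, interval -1.04 to 1.49). For both genes replicate 2 was the lowest library within JQ1 and within JQ1-VHL.

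Of 17 feedback brakes on the MAP kinase pathway, 10 were called lower (58.8%, against 4.18% of all genes tested), with a list median of -1.22. DUSP6, a phosphatase for ERK, was 3249 to 4575 in DMSO, 2807, 1475 and 1467 in JQ1 and 477, 446 and 443 in JQ1-VHL (log2 -2.0 ± 0.25, adjusted p = 0.000203). SPRY1, which blunts receptor tyrosine kinase signals, was 562 to 721, then 175 to 214, then 34.2 to 63.4 (log2 -1.91 ± 0.27, adjusted p = 0.00063). The 3 groups were in that order without overlap for both genes. SPRY2 fell 5.51-fold and DUSP5 2.33-fold.

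Of 12 KLF transcription factors, 6 fell (50%, against 4.18% of all genes tested), with a list median of -1.33. KLF5, a factor of epithelial growth, was 342, 332 and 167 in JQ1 and 46.9, 62.5 and 64.6 in JQ1-VHL (log2 -2.20 ± 0.42, adjusted p = 0.00563). KLF3 was lower by 2.08 log2 units (adjusted p = 0.000713) and KLF6 by 1.41 (adjusted p = 0.0047). KLF4 fell 3.22-fold (adjusted p = 0.00687, or 0.0535 without JQ1-VHL replicate 1).

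The list with the most calls was that of other short-lived regulators, chosen like the others with earlier results of these data known. In it 23 of 35 were lower (65.7%, against 4.18% of all genes tested), with a median of -1.38. SOX9, a transcription factor of progenitor cells, was 266, 265 and 266 in DMSO, 294, 232 and 242 in JQ1 and 42.2, 38 and 47.5 in JQ1-VHL, a 5.88-fold fall from JQ1 (log2 -2.56 ± 0.20, adjusted p = 4.7e-06). TRIB1, a pseudokinase that steers protein degradation, fell 6.10-fold (adjusted p = 1.69e-05). CCND1, which encodes cyclin D1, was a member that did not pass, at 23513, 24467 and 19139 in JQ1 and 19940, 25424 and 24858 in JQ1-VHL (log2 0.065, 95% interval -0.25 to 0.38).

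Luminal identity genes split. Of 20, 4 transcription factor genes fell (20%, against 4.18% of all genes tested) and the list median was -0.04. GATA3, which maintains luminal cells, was 39095 to 53383 in DMSO, 33848, 28872 and 20907 in JQ1 and 11630, 14459 and 11895 in JQ1-VHL (log2 -1.12 ± 0.18, adjusted p = 0.00141). ELF3, an epithelial ETS factor, fell 3.38-fold (adjusted p = 0.000186) and TFAP2C, an AP-2 factor, 2.44-fold (adjusted p = 0.003). TFAP2A fell 1.97-fold (adjusted p = 0.0165), but not without JQ1 replicate 1 (adjusted p = 0.0936), JQ1 replicate 2 (0.0558), JQ1-VHL replicate 1 (0.104) or JQ1-VHL replicate 3 (0.0578). No gene of the HER2 family and amplicon passed by limma among 14 (1 at an unadjusted p under 0.05, 0 by edgeR and 1 by DESeq2). GRB7, an adaptor encoded beside ERBB2, differed by -0.69 (adjusted p = 0.0732, or 0.0313 with the replicate number as a block), and ERBB2 itself differed by 0.37 (95% interval -0.37 to 1.1).

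Genes that promote cell death and a gene that restrains it both fell. Of 22 p53 targets 8 were lower (36.4%, median -0.72), against 4.18% of all genes tested. Of 20 genes of the BCL2 family and other death regulators 6 were lower (30%, median -0.21). PMAIP1, a BH3-only killer protein, was 8.86 to 16 in DMSO, 91.1, 74.6 and 62.4 in JQ1 and 12.7, 16.3 and 9.66 in JQ1-VHL (log2 -2.48 ± 0.31, adjusted p = 0.000224). BBC3, another BH3-only protein, was 1117 to 1263 in JQ1 and 190 to 253 in JQ1-VHL (log2 -2.37 ± 0.16, adjusted p = 2.95e-06). MCL1, which restrains such proteins, was 7731, 6022 and 5210 in JQ1 and 2352, 2580 and 2258 in JQ1-VHL (log2 -1.38 ± 0.19, adjusted p = 0.00043). BIK, a further BH3-only gene, fell 1.70-fold (adjusted p = 0.00571). The Polo-like kinases PLK2 and PLK3 fell 4.09-fold and 5.99-fold.

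Genes of the ligase that the degrader recruits did not pass in either direction, 0 of 21 by limma (2 at an unadjusted p under 0.05, 0 by edgeR and 1 by DESeq2). VHL was 770 to 1177 in JQ1 and 815 to 862 in JQ1-VHL (log2 -0.18, 95% interval -0.66 to 0.29). The ubiquitin-conjugating enzyme CDC34 was 2112 ± 128 and 1533 ± 78.1 (SD, n = 3 each), but did not pass (log2 -0.46, adjusted p = 0.1004). VHL also restrains the hypoxia factors, and of 20 HIF targets 3 fell (15%, against 4.18% of all genes tested) and none rose. DDIT4, an inhibitor of mTORC1, was 742 to 1204 in JQ1 and 148 to 218 in JQ1-VHL (log2 -2.36 ± 0.28, adjusted p = 0.000159), and ANKRD37 fell 4.03-fold (adjusted p = 0.000329). PFKFB3, which drives glycolysis, fell 1.66-fold (adjusted p = 0.0453), a call that held only without JQ1 replicate 3 among the fits that left out a library (adjusted p = 0.0795 to 0.264 in the others).

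Among factors that shorten mRNA lives, 5 of 32 fell (15.6%, against 4.18% of all genes), with a median of 0.02. ZFP36L2, which binds AU-rich elements and starts decay, was 2536 to 3171 in JQ1 and 726 to 942 in JQ1-VHL (log2 -1.77 ± 0.23, adjusted p = 0.000263). BTG1 and TOB1, adaptors of the deadenylase complex, fell 2.77-fold and 3.36-fold. ZFP36L1 fell by 0.98 log2 units (adjusted p = 0.0118), but not without JQ1 replicate 1 (adjusted p = 0.0839), JQ1 replicate 2 (0.0679) or JQ1-VHL replicate 1 (0.0820). TOB2, named after its value was seen, fell by 1.16. In cell division 2 of 26 genes fell (7.69%, against 4.18% of all genes), CDC25A (log2 -0.85) and CCNE1 (log2 -0.93). Both lost the call without JQ1 replicate 1 (adjusted p = 0.0503 and 0.0622) and without JQ1-VHL replicate 1 (0.0641 and 0.0687), and CDC25A also without JQ1 replicate 2 (0.0530). CCNE2, the other cyclin E gene, differed by -1.27 (adjusted p = 0.115, or 0.00641 with the replicate number as a block). Of 29 nuclear pore genes NUP153, a basket protein, passed (log2 -1.01, adjusted p = 0.0335). It was lost without JQ1 replicate 1 (adjusted p = 0.215) and without any 1 of the JQ1-VHL replicates (0.0777 to 0.155). DYRK3 was the 1 call among 33 speckle and SR protein genes. Those shares, 3.45% and 3.03%, are under the 4.18% of all genes, so the calls say nothing of either list.

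Large housekeeping groups had medians near 0, with the histone list the furthest below. No call was made by limma among 79 ribosomal protein genes (median 0.025), 36 respiratory chain genes (0.0090), 30 proteasome genes (0.082), 29 mRNA export factors (0.063), 20 sterol synthesis genes (-0.033), 28 ribosome biogenesis genes (-0.12), 18 heat shock genes (-0.072), 17 histone genes (-0.23) and 14 m6A genes (-0.14). The nuclear RNA MALAT1 was 1332 to 3327 in JQ1 and 2502 to 4029 in JQ1-VHL (difference 0.32, 95% interval -0.57 to 1.21), and NEAT1 differed by -0.52 (adjusted p = 0.39). With the replicate number as a block some members passed. These were HSPA1B, a heat shock chaperone (log2 -1.03, adjusted p = 0.0522, or 0.0247 with the block), DNAJB1, its cochaperone (-0.92, 0.0608 or 0.00247), and the histone gene H4C8 (-0.88, 0.161 or 0.0488). HSPA1B passed in edgeR (0.0411) and DESeq2 (0.00602) as well, and may share reads with its near-identical copy HSPA1A. Over the 16 lists without a call, 25 of 392 tested members had an unadjusted p under 0.05 in limma, edgeR called 1 and DESeq2 10. The 25 were not spread evenly, with 7 of 17 histone genes and 5 of 18 heat shock genes among them. The ribosomal protein, respiratory chain, proteasome, mRNA export and sterol lists held 0.

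All 20 interferon response genes had fitted differences below 0, with a median of -0.88, and none passed by limma (2 at an unadjusted p under 0.05, 0 by edgeR and 1 by DESeq2). This moved with JQ1 replicate 3, in which the list stood apart. The median was -0.31, with 16 of 20 below 0, once that library was left out, and none passed then either. Among the 4 with the smallest p was IFIT2, an antiviral RNA sensor, at 69, 52.4 and 181 in JQ1 and 27.5, 27.2 and 28.2 in JQ1-VHL (adjusted p = 0.251, or 0.032 with the replicate number as a block).

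**Figure D4:**
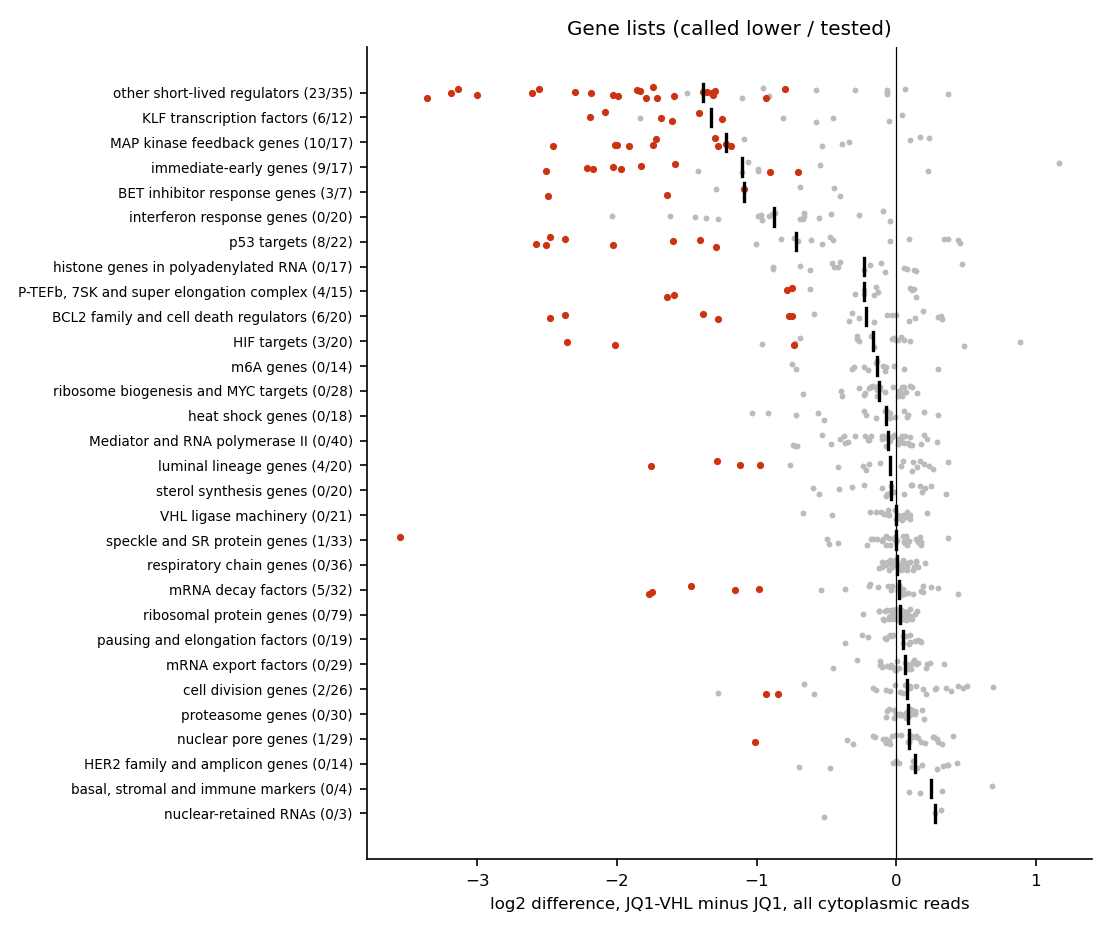
Log2 differences in all cytoplasmic reads for the tested members of 30 gene lists (points, red where the adjusted p was under 0.05) with the list median (bar), sorted by median. Calls gather in the short-lived, KLF, MAP kinase feedback and immediate-early lists, and ribosomal, respiratory and proteasome genes sit near 0.

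Genes higher in JQ1-VHL numbered 6, or 19 with median-ratio scaling, 51 with that scaling and the block, 18 with edgeR and TMM scaling and 68 with weights per library. CPE, which trims prohormones, was 35.8, 10.3 and 5.61 in JQ1 and 92.5, 58 and 61.6 in JQ1-VHL (log2 2.32 ± 0.49, adjusted p = 0.012), with DMSO at 15.2 to 26.6. The call was lost without JQ1-VHL replicate 1 (adjusted p = 0.0820) or JQ1 replicate 2 (0.0558). LRP1B, a large receptor of the LDL receptor family, was 2344, 1875 and 1570 in JQ1 and 3199, 3052 and 3167 in JQ1-VHL (log2 0.72 ± 0.18, adjusted p = 0.0324). NOSTRIN, an adaptor that binds nitric oxide synthase, was 13.1 to 32.4 and 52.5 to 76.4 (log2 1.51 ± 0.37, adjusted p = 0.0291). Both lost the call without each single library of the comparison but JQ1 replicate 1 (adjusted p = 0.0836 to 0.131 for LRP1B and 0.0554 to 0.160 for NOSTRIN). The other 3 were under the level set for naming and are named after their values were seen. SNX31, a sorting nexin, was 3.36 to 5.96 in JQ1 and 71.1, 20.8 and 43.8 in JQ1-VHL (log2 2.96 ± 0.58, adjusted p = 0.00739), CD226 rose by 1.27 and SSUH2 by 1.73.

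How far a transcript fell went with its T>C share in DMSO cytoplasm, a group outside the comparison. The share grows with the part of a gene's RNA made within the labelling hour. It stands in for turnover, which was not itself measured. Among 10381 genes with a mean of at least 50 in DMSO, the median difference between JQ1-VHL and JQ1 was 0.026 log2 units where the share was under 0.25%, -0.0076 at 0.5 to 1%, -0.23 at 2 to 5%, -0.75 at 5 to 10% and -1.22 over 10%. The percentage of genes called lower in these classes was 0.146%, 1.29%, 12.3%, 30.5% and 55.5%, next to 4.18% of all genes tested. Without JQ1 replicate 3 the medians of these 5 classes were -0.032, -0.10, -0.34, -0.85 and -1.31, and the percentages 0.0729%, 1.67%, 12.4%, 30.5% and 54.5%. Each JQ1-VHL replicate was also set against the mean of the JQ1 libraries. In the class over 10% (110 genes) the medians for JQ1-VHL replicates 1 to 3 were -1.34, -1.21 and -1.08. In the class under 0.25% (2745 genes) they were -0.045, 0.024 and 0.080. These values share the JQ1 mean, so they do not show the spread between JQ1 libraries. Across genes Spearman's rho between share and difference was -0.33, a description over genes that share the same libraries. Of the 110, 13 were among the 183 genes whose share hardly differs between fractions.

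**Figure D5:**
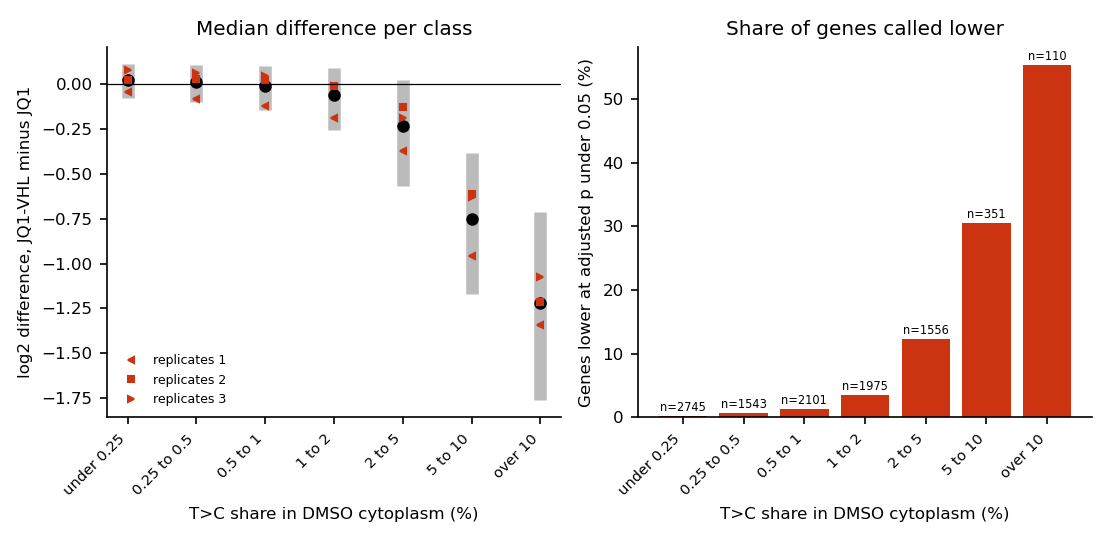
Genes are grouped by their T>C share in DMSO cytoplasm. Left, the median log2 difference between JQ1-VHL and JQ1 (black) and the quartiles (grey bar). Red marks give the median of each JQ1-VHL replicate against the mean of the JQ1 libraries. Right, the percentage of genes called lower, with the number of genes. The median drops from 0.026 to -1.22 and the called share rises from 0.146% to 55.5%.

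The falling genes were also short and simple. This was looked at after the calls were known, with GENCODE v29 transcripts matched by gene identifier for 509 of the 521 and 12101 of the 12470 tested. The median falling gene had 4 exons and spanned 16.5 kb, against 9 exons and 35.7 kb for all tested genes. At most 3 exons were annotated for 218 (42.8%) of the falling genes and 1515 (12.5%) of all. HEXIM1, IER5 and IER3 have 1 exon each, SOCS3, RNF223 and BTG2 have 2. The difference was present within classes of like T>C share. Among genes with a share over 5%, 47.4% of the 38 with 1 exon, 51.6% of the 124 with 2 to 3, 35.3% of the 190 with 4 to 8 and 15.5% of the 103 with more were called lower. Among those with a share of 2 to 5% the percentages were 24.6%, 27.5%, 13.1% and 4.95%. The 6 higher genes had a median of 16.5 exons and 128 kb, with LRP1B the longest at 1900 kb and 91 exons.

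Short-lived mRNAs often carry AU-rich elements in their 3′ untranslated regions, where proteins such as ZFP36L2 bind and start decay. The heptamer TATTTAT, searched on the transcript strand, was in the untranslated region of 254 (49.9%) of the falling genes and 4300 (35.5%) of all. Falling genes had longer regions, with a median of 1604 against 1312 bases. Within regions of 500 to 2000 bases the heptamer was in 43.7% of 247 falling genes and 27.7% of 4880 of all. A match is a description and not a shown binding site, and RGS2, MYC and DYRK3 fell without one. The sites below are shown because they come from genes that fell and from a pair of genes that did not pass. They were read from GENCODE v29 transcripts on GRCh38, 5′ to 3′ on the transcript strand, with the heptamer in capitals. The first 7 genes fell, and FOS and CCND1, which carry the same heptamer, did not pass.
RGS16, chr1:182599639-182599668, minus strand: cccatgcgagaTATTTATacctcaaacact
SOCS3, chr17:78356831-78356860, minus strand: aactttgcacaTATTTATatttatattcag
GADD45A, chr1:67688260-67688289, plus strand: acatgaaaagtTATTTATgctataaatttt
BTG2, chr1:203307528-203307557, plus strand: aaatgaagagcTATTTATatatattatttt
IER3, chr6:30743652-30743681, minus strand: ctcctaattaaTATTTATatgtatttatgt
SOX9, chr17:72125498-72125527, plus strand: cttgctaaaatTATTTATtttgtaaggaga
MCL1, chr1:150575806-150575835, minus strand: ccctctacagaTATTTATatcaattcctac
FOS, chr14:75282060-75282089, plus strand: tgtttttaattTATTTATtaagatggattc
CCND1, chr11:69652694-69652723, plus strand: gctaaaaagtaTATTTATtgcagaggatgt

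T>C reads of single genes fell far more widely than all reads. Of 6300 genes tested, 2927 were lower and 8 higher (46.6% in all, 46.5% lower and 0.127% higher, limma), and the median over all of them was -1.39 log2 units. The count rests on the scaling to ERCC RNA. Median-ratio scaling, which takes the typical gene as level, moved the median to -0.44 and left 47 higher and 177 lower calls, and edgeR with TMM scaling left 122 and 258. The lower share of the calls was 99.7% with the deposited scaling, 79.0% with median ratios and 67.9% with TMM. Genes called lower in all reads had a median T>C difference of -2.42 (431 tested, 366 called lower), and genes not called had -1.32 (5866 tested, 2561 called lower). CCND1 is an example of the second kind. Its T>C reads were 21.3, 23.8 and 9.35 in JQ1 and 2.01, 2.72 and 1.49 in JQ1-VHL (log2 -2.56 ± 0.55, adjusted p = 0.000693), with all reads level. This call and those of MYC, BRD2 and SPRY1 in T>C reads were lost under median-ratio scaling (adjusted p = 0.254, 0.121, 0.130 and 0.213).

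The largest falls in T>C reads that met the rule kept their call in all 19 alternatives, including both other scalings. FTL, the ferritin light chain that stores iron, was 73.3, 81 and 80.4 in JQ1 and 0, 2.72 and 2.97 in JQ1-VHL (log2 -5.01 ± 0.55, adjusted p = 2.49e-07), although its all-read value was only 1.46-fold lower and did not pass. DMSO stood at 12.7 to 47.1, so the JQ1 libraries lay above DMSO and the JQ1-VHL libraries below it. PNRC1, a nuclear receptor coregulator, was 40.4 to 69 in JQ1 and 0.743 to 2.01 in JQ1-VHL (log2 -4.57 ± 0.50, adjusted p = 2.7e-07). EXOC8, a subunit of the exocyst, was 40.5 to 60.9 and 0 to 3.62, with 5 reads in all in JQ1-VHL. RGS2 had 167 T>C reads in JQ1 and 3 in JQ1-VHL, a scaled ratio of 42.9 with a counting interval of 14.4 to 210.4. POLR3K, a subunit of RNA polymerase III, had 153 and 2 (ratio 59, interval 16.1 to 492), and FAM110A had 116 and 1 (ratio 89.5, interval 15.7 to 3565). LMO4, a LIM-only adaptor, had 112 reads in JQ1 and 0 in all JQ1-VHL libraries, so it was at least 9.90-fold lower taking a floor of 3 reads per library. These intervals are 95% exact Poisson intervals, and like the floors they cover counting error only.

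GATA3, DUSP6, MCL1 and HEXIM1 had larger differences in T>C reads than in all reads, which was not so for every gene named. GATA3 was 963, 763 and 758 in JQ1 and 80.5, 131 and 95.1 in JQ1-VHL (log2 -3.03 ± 0.27, adjusted p = 4.25e-09). DUSP6 was 150 to 272 and 21.5 to 25.4 (log2 -2.93 ± 0.37, adjusted p = 1.13e-06), MCL1 92 to 110 and 6.68 to 16.8 (log2 -3.05 ± 0.41, adjusted p = 2.85e-06) and HEXIM1 58.7 to 75 and 1.81 to 6.68 (log2 -3.94 ± 0.48, adjusted p = 9.88e-07). These 4 kept the call under both other scalings. MYC had 70 T>C reads in JQ1 and 3 in JQ1-VHL (ratio 18, interval 5.91 to 89.4). EGR1 stayed high in new RNA, at 493, 260 and 446 in JQ1 and 752, 220 and 718 in JQ1-VHL, against 38 to 129 in DMSO (difference between the compounds 0.35, 95% interval -0.62 to 1.33). That difference did not pass, but was 2.06 with edgeR and TMM scaling (adjusted p = 6.49e-12) and 1.90 with median-ratio scaling (adjusted p = 0.0685, or 0.0103 with the block). The export cofactor NXT1 was 24.7 to 38.3 and 4.02 to 22.6 (adjusted p = 0.0294). That call was lost without JQ1 replicate 1, JQ1 replicate 2 or JQ1-VHL replicate 1 (adjusted p = 0.0970, 0.0895 and 0.227). With TMM scaling NXT1 stood at 0.12, the other sign.

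By list, calls in T>C reads were lower for 13 of 13 MAP kinase feedback genes (median -2.93), 29 of 33 other short-lived regulators (-2.40), 8 of 10 KLF factors (-2.19), 12 of 16 immediate-early genes (-1.96) and 11 of 16 luminal genes (-2.32). Lists without a call in all reads held lower calls here, with 46 of 75 ribosomal protein genes (-1.22), 19 of 32 respiratory chain genes (-1.63), 14 of 30 proteasome genes (-1.51) and 14 of 17 heat shock genes (-1.85). The background was 46.5% lower, so proteasome genes (46.7%) lay near it, and ribosomal protein (61.3%) and respiratory chain genes (59.4%) above it. The median over all tested genes was -1.39, so ribosomal protein genes were called more often but had a smaller median fall. The list of pausing and elongation factors held the 1 listed gene called higher, SKIC8, which was named after its value was seen (log2 1.92, adjusted p = 0.0429).

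The T>C share of single genes relates the new RNA of a gene to all its RNA, and fell in 2417 of 6299 genes and rose in 9 (38.5% in all, 38.4% lower and 0.143% higher, limma), with a median of -1.22 log2 units. FTL was 0.460%, 0.544% and 0.389% in JQ1 and 0%, 0.0247% and 0.0228% in JQ1-VHL (log2 -4.46 ± 0.57, adjusted p = 0.000259). RRS1, a ribosome assembly factor, was 0.513%, 1.35% and 1.02% in JQ1 and 0% in all JQ1-VHL libraries, at least 8.03-fold lower at the same floor. The share of MYC did not pass, at 14.4%, 20.6% and 19.5% in JQ1 and 12.5%, 0% and 16.7% in JQ1-VHL (log2 0.10, 95% interval -0.60 to 0.80), with 3 T>C reads behind the latter, too few to read a direction.

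Rises in share were few and rest on few reads. ZNF790, a zinc finger gene, was 0%, 1.47% and 0% in JQ1 and 8.86%, 13% and 4.80% in JQ1-VHL (log2 2.45 ± 0.65, adjusted p = 0.00871), with 1 and 20 T>C reads. GSTCD, a glutathione transferase-like gene, had 2 and 18 reads (log2 2.02 ± 0.53, adjusted p = 0.00788), and SPATA5, an ATPase of ribosome maturation, 5 and 18 (log2 1.75 ± 0.49, adjusted p = 0.0105). For all 3 genes the JQ1 and JQ1-VHL libraries did not overlap. DMSO lay above JQ1 in every library for GSTCD and SPATA5, but was 6.5%, 3.33% and 0% for ZNF790. PHF20L1, a chromatin reader, rose by 1.6 (adjusted p = 0.0322), lost without JQ1 replicate 1 or without JQ1-VHL replicate 1 or 3 (adjusted p = 0.148, 0.0914 and 0.0982).

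The same step from inhibitor to degrader was made with IBET151, in libraries that do not enter the JQ1 difference itself. Both pairs share the fit over 14 cytoplasmic libraries and its estimate of the spread, so their calls are not independent. In the IBET151 pair 982 genes were lower and 4 higher in all reads (7.87% and 0.0321% of 12470, limma). Of the 521 genes lower with JQ1-VHL all 521 had a fitted difference below 0 between IBET151-VHL and IBET151, against 76.2% of all tested genes, and 482 were called. These 482 are 92.5% of the first list and 49.1% of the second. Over the 521 the median was -1.30 in the JQ1 pair and -1.6 in the IBET151 pair. RGS2 was 534 and 470 in IBET151 and 38.2 to 60.5 in IBET151-VHL, and MYC 44.7 and 113 against 7.4 to 13.1. CPE was 12.4 and 11.8 against 62.6 to 86.4 (log2 2.54, adjusted p = 0.00814) and SNX31 rose by 2.57 (adjusted p = 0.0221), whereas LRP1B (0.17) and NOSTRIN (0.81) did not pass. A test of the difference between the pairs called 0 of 12470 genes in all reads by limma, with 240 at an unadjusted p under 0.05, and 0 in each alternative run. The median of that difference was 0.15 log2 units. With only 2 IBET151 libraries, the lack of calls does not show that the changes were of equal size in both pairs. In T>C reads the test called 14 of 6300 genes (0.222%), but 1 with median-ratio scaling and 0 to 92 with a library left out.

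Nuclear libraries of the same compounds gave the falling genes a median of -1.16 log2 units, against -0.076 over the 12470 genes tested in the cytoplasm. Of the 521, 512 (98.3%) had a nuclear difference below 0, against 59.1% of all. RGS2 differed by -3.25 in the nucleus (adjusted p = 0.000912) and MYC by -2.99 (adjusted p = 0.0106), where 0.394% of 14458 genes were called lower. CPE and SNX31 were higher there too, by 2.04 (adjusted p = 0.0379) and 2.73 (adjusted p = 0.00433), where 0.297% were called higher. A test of the difference in change between the fractions called 0 of 14458 genes by limma (216 at an unadjusted p under 0.05), or 4 under median-ratio scaling. The median of that difference was -0.030, but -0.53 without JQ1 nuclear replicate 1 and 0.53 without JQ1-VHL nuclear replicate 1. With nuclear libraries that far apart, the lack of calls does not show that the changes were of equal size.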

How the data were processed

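Per the submitters' processing notes, reads were handled with bcl2fastq, Trimmomatic 0.39, HISAT2, HTSeq and DESeq2 against the builds GRCh37, hg19 and dm3. The calling of T>C reads is not given in the sources used here. The deposited signal values covered 16482 genes for all reads and 13029 for T>C reads. They were gene counts that the authors had divided by size factors from ERCC RNA, and whole reads were recovered for 100% of values within 0.01 (edgeR on them called 534 genes in all reads). No column was unused (0). Genes reaching a value of 10 in 2 or more libraries, or 5 for T>C reads, were tested on log2(value + 1), so folds of low genes are understated. The fit was limma 3.58.1 (trend) in R 4.3.3 over the 14 cytoplasmic libraries, or 28 for both fractions, with Benjamini-Hochberg adjustment and a threshold of 0.05. Every adjusted p of a gene comes from limma unless another tool is named. edgeR 4.0.16 and DESeq2 1.42.0 on recovered reads, other scalings, filters and pseudocounts, left-out libraries and a replicate block were alternatives. Library sums were compared by exact permutation in scipy 1.17.1. The scripts were tested on simulated data.

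Members and lists were chosen with earlier results of these data known. Named were the 12 largest changes each way in all reads (mean of the higher group at least 50), 8 in T>C reads (at least 20) and 4 in T>C share, all without overlap, 4 members of each list by p, and a standing list of genes. Some genes that met the rule are not reported here. Same-numbered JQ1 and JQ1-VHL libraries deviated together in all reads (r = 0.240, 0.429 and 0.240) but not in T>C reads (0.025, 0.047 and 0.017), and no label explains the replicate numbers. By library number, cytoplasmic IBET151 replicates 1 (948) and 2 (960) stood among replicates 2 and 3 of other compounds. JQ1 replicate 3 (973) stood apart from JQ1-VHL replicate 3 (959). The replicate block follows the replicate number and not these runs, which limits every p-value given with it. Transcript features, median-ratio scaling combined with the block, the settings for the T>C difference between compound pairs, and the lists without JQ1 replicate 3 were chosen after seeing the data. A promoter comparison was void, since the promoter table covered 77.9% of the falling genes. No library without 4-thiouridine was analysed here, so the T>C background is unknown.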

Additional observations from a re-analysis of the deposited data

Results flagged for a closer look

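The change from inhibitor to degrader in T>C reads differed between the JQ1 pair and the IBET151 pair for 14 genes, by limma's test of the difference itself over 6300 genes (adjusted p = 0.029 to 0.048). In all 14 the JQ1 pair had the higher value, and over all 6300 genes the median change was -1.39 log2 units in the JQ1 pair and -2.25 in the IBET151 pair, with a median difference of 0.87 between the pairs. The count depends on scaling and on single libraries, in settings chosen after seeing the data. With the replicate block 20 genes were called, among them all 14. Median-ratio scaling called 1 gene, lower in the JQ1 pair and none of the 14, with adjusted p = 0.289 for GSTCD, 0.406 for SPATA5 and 0.402 for ZBTB7A. The count was 0 without IBET151 replicate 1 or 2, JQ1 replicate 1 or 2, or JQ1-VHL replicate 2. It was 2 without JQ1 replicate 3, 7 without JQ1-VHL replicate 3, 92 without JQ1-VHL replicate 1, and 14, 17 and 16 without IBET151-VHL replicates 1 to 3. All 14 differences stayed above 0 in each of these settings. ZBTB7A, a transcriptional repressor, had scaled values of 110, 99.2 and 93.1 in JQ1, down to 13.4, 31.7 and 23 with JQ1-VHL. The IBET151 libraries held 122 and 195 and the IBET151-VHL libraries 4.04, 1.73 and 4.18, and the changes differed by 3.05 log2 units. GSTCD was 0, 0 and 0.748 in JQ1, then 6.03, 5.44 and 2.23 with JQ1-VHL. It was 6.66 and 10 with IBET151, then 0, 0 and 1.19 with IBET151-VHL, a difference of 4.95. SPATA5 had 0.852, 0 and 1.5 in JQ1, then 6.03, 4.53 and 2.97 with JQ1-VHL. The IBET151 libraries held 10.5 and 10, those of IBET151-VHL 0.597 to 0.864, a difference of 4.41. Both rose in one pair and fell in the other, at counts of 2 and 5 T>C reads in JQ1.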

How the results depend on the processing

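The number of genes differing in all reads (527) was 887 where a replicate block was joined to median-ratio scaling, 1261 with weights per library, 1069 with runs of library numbers as a block, and 259 to 526 with a library left out. With the replicate block alone it was 696, and no named call was lost. In T>C reads (2935) it was 1485 with a filter 5 times as high, 224 with median-ratio scaling, 272 with that scaling and the block, 380 with edgeR and TMM scaling, 3015 with the block alone and 2131 to 2929 with a library left out. For the T>C share (2426) it was 1415 with the higher filter, 2499 with the block and 1679 to 2183 with a library left out. Genes differing between the compound pairs in T>C reads (14) numbered 1 with median-ratio scaling, 20 with the block and 0 to 92 with a library left out. The fraction difference gave 4 genes with median-ratio scaling and 0 with each library left out. The summed difference in all reads was 0.038 with median-ratio scaling and -0.092 to 0.037 with a library left out. That of T>C reads was 0.60 with median-ratio scaling, which levels the median gene among those above 0 in all 14 cytoplasmic libraries. The summed T>C difference was -1.04 to -0.84 with a library left out, and the T>C share differed by -0.265 to -0.244 points. Turnover class medians were 0.092 (under 0.25%, median-ratio scaling), and -0.39 (2 to 5%) and -1.36 (over 10%) with classes from IBET151. With edgeR and TMM scaling T>C reads of FOS stood at 1.66 and of NXT1 at 0.12. Except for the named construction of median ratios, the cause was not tested. Few T>C reads per gene limit what a single gene can show.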
